A study of Mus musculus with 12 samples.

Results

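Cholesterol synthesis genes were followed in ribosome-bound RNA of the mouse small intestinal muscularis, in naive animals and 3 h after intestinal manipulation. The 8 genes were Hmgcs1, Idi1, Fdps, Fdft1, Sqle and Lss, which encode enzymes of the route from acetyl-CoA to lanosterol, and Srebf2 and Insig1, which control it. They were chosen by gene name from the sterol pathway, with their CPM (counts scaled to 1000000 per library) across the 4 groups already known, so their changes with time and antibody are given as a description and support nothing by themselves. Of the 8 genes, 7 had a row among the 12975 genes of the count table, and Fdft1, squalene synthase, is not analysed here. None of the 8 is an uptake gene, so uptake was followed through a separate list.

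The mice were PLPCreERT2 Rpl22HA animals, in which a tamoxifen-inducible Cre driven by the Plp promoter switches the ribosomal protein Rpl22 to an HA-tagged form, so that ribosomes of Plp-expressing enteric glial cells (EGCs) can be pulled down. All animals received 2 injections of 100 µl tamoxifen at 15 mg/ml from an age of 10 to 12 weeks and were killed 3 to 4 weeks after the first. The T0 animals (3 mice) were naive, and the T3 animals (3 other mice) were taken 3 h after anaesthesia, laparotomy and manipulation of the small bowel. No sham group was given for these libraries, so handling of the bowel, anaesthesia and opening of the abdomen cannot be told apart. The homogenate of each mouse was split between an anti-HA pull-down (HA) and a control pull-down with isotype antibody (IgG), which gave 3 libraries in each of HA T0, HA T3, IgG T0 and IgG T3.

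Library totals were 1789710 to 2870591 UMI (unique molecular identifier) counts in HA T0, 1221788 to 1495439 in HA T3, 388214 to 1289833 in IgG T0 and 88136 to 248522 in IgG T3. A count of 0 therefore allowed up to 3 counts, or 1.05 CPM in the deepest and 34.0 CPM in the shallowest library, for counting error only. The glial label held, since 10 glial markers summed to 3686 to 4554 CPM in HA T0 and 4515 to 5209 CPM in HA T3, against 178 to 242 CPM in IgG T0 and 229 to 998 CPM in IgG T3. The higher sum at T3 came from Gfap, which rose from 118 ± 19.7 to 1715 ± 226 CPM in HA; without it, a sum chosen after its values were seen, the other 9 gave 3590.0 to 4425 CPM in HA T0 and 2853 to 3537 CPM in HA T3. Of the 10, S100b, Gfap and Sox2 were called higher in HA T3 than in HA T0 and Gpr37l1 lower, from 1723 ± 154 to 785 ± 218 CPM. The pull-down was an enrichment and not a pure population: 8 smooth muscle markers still gave 15588 to 23903 CPM in HA T0 and 12915 to 15212 CPM in HA T3. The sum of 4 markers of interstitial cells of Cajal was also higher in HA T0 (2618 to 3378 CPM) than in IgG T0 (276 to 372 CPM). It stood at 1170 to 1536 CPM in HA T3 and 181 to 783 CPM in IgG T3. The 4 did not agree: in HA over IgG at T0, Kit and Ano1 were called higher, by 3.64 and 3.35 on the log2 scale. Cd34 was called lower (-2.01) and Etv1 was not called (0.42). Fibroblast markers (6 genes) summed to 854 to 1055 CPM in HA T0 and 217 to 427 CPM in HA T3, and mesothelial markers (5 genes) to 141 to 181 and 14.0 to 18.8 CPM. Neuronal markers (8 genes) summed to 1004 to 1115 CPM in HA T0 and 1063 to 1831 CPM in HA T3, where Tubb3, Prph and Uchl1 were called higher by 1.11, 0.85 and 0.56 on the log2 scale. Macrophage markers (8 genes) gave 222 to 468 and 163 to 252 CPM, with Cd14 called higher and Csf1r lower, and the 3 neutrophil and monocyte markers with a row gave 1.39 to 5.59 and 18.1 to 116 CPM, with S100a9 called higher. The part of these cell types in the sterol values was not tested. In all of these libraries, fewer cells of a type and less RNA per cell cannot be told apart.

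Cholesterol is built from acetyl-CoA through mevalonate, the isoprenoid diphosphates, squalene and lanosterol. The membrane-bound transcription factor SREBP2, encoded by Srebf2, is held in the endoplasmic reticulum by SCAP and INSIG proteins when sterols are plentiful, and is carried to the Golgi, cleaved and released to the nucleus when they run low. Its targets include most enzymes of the route, Insig1 and Srebf2 itself. In nervous tissue, glia are a major site of sterol synthesis.

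The promoters are shown because this route is classically switched through short elements close to the start site, and because Hmgcs1, Srebf2 and Insig1 were higher in every HA T3 than in every HA T0 library. RefSeq promoter windows (GRCm38.p6, from 250 bases before to 50 bases after the start, 5′ to 3′) were matched for 5 of the 8 genes: Hmgcs1, Srebf2, Insig1, Idi1 and Lss. The 3 windows below lie on the plus strand at chr13:119690101-119690400, chr15:82147019-82147318 and chr5:28071162-28071461, in that order, and capitals mark matches to TCACNCCAC, a sterol regulatory element (SRE) type motif, or to CCAAT, on either strand.
Hmgcs1: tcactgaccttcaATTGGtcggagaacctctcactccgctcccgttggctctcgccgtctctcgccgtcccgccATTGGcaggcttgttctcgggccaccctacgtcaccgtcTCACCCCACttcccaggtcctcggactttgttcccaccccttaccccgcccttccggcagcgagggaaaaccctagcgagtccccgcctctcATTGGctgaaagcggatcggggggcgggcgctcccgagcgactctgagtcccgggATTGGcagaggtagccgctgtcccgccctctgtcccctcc
Srebf2: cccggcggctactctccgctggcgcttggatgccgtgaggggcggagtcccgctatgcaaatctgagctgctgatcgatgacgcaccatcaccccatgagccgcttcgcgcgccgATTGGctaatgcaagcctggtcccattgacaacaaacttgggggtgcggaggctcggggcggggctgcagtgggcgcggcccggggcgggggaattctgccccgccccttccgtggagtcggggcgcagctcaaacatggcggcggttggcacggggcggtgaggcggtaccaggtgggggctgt
Insig1: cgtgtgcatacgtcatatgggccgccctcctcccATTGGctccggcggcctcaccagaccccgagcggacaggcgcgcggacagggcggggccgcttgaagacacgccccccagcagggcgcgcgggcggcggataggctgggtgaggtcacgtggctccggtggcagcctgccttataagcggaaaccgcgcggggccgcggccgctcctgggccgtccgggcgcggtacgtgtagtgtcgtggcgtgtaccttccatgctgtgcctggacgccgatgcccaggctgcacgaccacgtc
The SRE-type motif was found in 1 of the 5 windows, that of Hmgcs1, at -137 to -129 from the start as TCACCCCAC, and in 1.24% of 32851 windows of the same length. A CCAAT match, read here as ATTGG on the opposite strand, was present in all 5, with 4 matches in Hmgcs1, 2 in Idi1 and 1 each in Insig1, Lss and Srebf2, against 37.4% of all windows. The GC box GGGCGG, left in lower case, was also present in all 5, against 35.7% of all windows. No letter of these 3 motifs overlapped another of them. These matches are descriptions of the letters and not of bound sites.

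Hmgcs1 (chromosome 13, GRCm38, 119690379 to 119708260, plus strand) encodes the cytosolic HMG-CoA synthase, the entry to the mevalonate route. Its level was 192, 170.4 and 169 CPM in HA T0 (animals 1, 2 and 4) and 638, 554 and 577 CPM in HA T3 (animals 1, 3 and 4). In IgG it was 214, 106 and 127 CPM at T0 and 159, 152 and 177 CPM at T3. All 3 HA T3 libraries stood above the 9 others, which overlapped among themselves. The means were 177 ± 12.8 CPM (SD, n = 3) in HA T0 and 589 ± 43.3 CPM in HA T3, a ratio of 3.33. The fitted log2 fold change was 2.00 ± 0.17 (SE), against 0.14 ± 0.35 in IgG. Here and below, log2 fold changes come from fits with another library scaling (TMM) than CPM, so they differ from ratios of CPM means. Within animals, the HA level was 0.896, 1.60 and 1.33 times the IgG level at T0 and 4.01, 3.64 and 3.26 times at T3.

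Fdps (chromosome 3, 89093588 to 89101959, minus strand) encodes farnesyl diphosphate synthase, whose product feeds squalene synthesis and protein prenylation. It was at 148, 104 and 108 CPM in HA T0 and at 216, 208 and 220.3 CPM in HA T3, with no overlap. The IgG libraries held 118, 87.4 and 107 CPM at T0 and 79.4, 54.3 and 92.5 CPM at T3, so that IgG overlapped between times. The log2 fold change from T0 to T3 was 1.10 ± 0.19 in HA and -0.42 ± 0.37 in IgG. HA over IgG within animals ran from 1.01 to 1.25 at T0 and from 2.38 to 3.83 at T3. The IgG T3 values rest on 7, 5 and 23 counts, so these last ratios are poorly known. The counting window of Fdps overlaps the gene model Gm43738 on the same strand, so reads of both cannot be told apart.

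**Figure D1:**
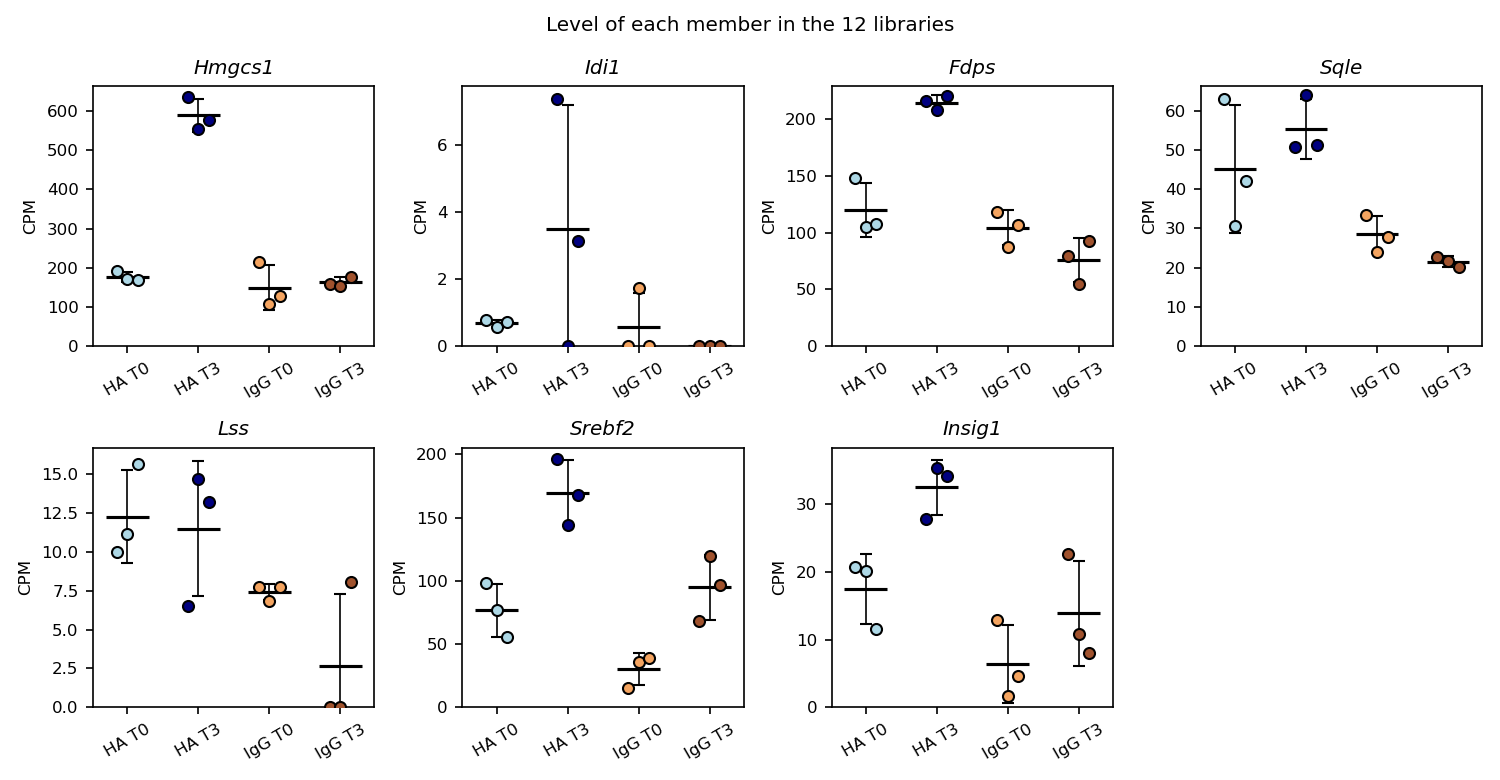
CPM (linear axis from 0) of the 7 genes with a row, one point per library in animal order, with the group mean (line) and SD (whiskers) for HA T0, HA T3, IgG T0 and IgG T3. For Hmgcs1, Fdps, Insig1 and Srebf2 all 3 HA T3 points lie above all other libraries. Srebf2 is also higher in IgG T3 than in IgG T0.

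Sqle, Lss and Idi1 were not called between the times in HA. Sqle (chromosome 15, 59315077 to 59331192, plus strand), squalene epoxidase, was at 63.0, 30.7 and 42.2 CPM in HA T0 and at 50.7, 64.2 and 51.4 CPM in HA T3. These ranges overlapped, through animal 1 of T0, and the log2 fold change was 0.54 ± 0.25, or 0.87 without that library. In IgG, Sqle was at 33.5, 24.0 and 27.9 CPM at T0 and 22.7, 21.7 and 20.1 CPM at T3, where the last 3 values rest on 2, 2 and 5 counts. Lss (chromosome 10, 76531588 to 76557138, plus strand), lanosterol synthase, was low throughout, at 9.98, 11.2 and 15.7 CPM in HA T0 and 6.55, 14.7 and 13.2 CPM in HA T3. Its fitted log2 fold change was 0.18 ± 0.35, while its mean CPM went from 12.3 to 11.5. Its IgG values were 7.73, 6.86 and 7.75 CPM at T0 and 0, 0 and 8.05 CPM at T3. The Lss window overlaps the antisense gene 4930483K19Rik, so without knowing whether counting used strand, reads of both cannot be told apart. Idi1 (chromosome 13, 8885501 to 8892451, plus strand), isopentenyl diphosphate isomerase, had 2, 1 and 2 counts in HA T0, 9, 0 and 4 in HA T3, 0, 1 and 0 in IgG T0 and 0 in each IgG T3 library. At that depth no difference was detectable for Idi1, and it entered no test.

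Both control genes were higher in HA at T3. Srebf2 (chromosome 15, 82147181 to 82205379, plus strand) was at 97.9, 76.5 and 55.7 CPM in HA T0 and 196, 144 and 168 CPM in HA T3. In IgG it was at 15.5, 36.0 and 38.8 CPM at T0 and 68.1, 119.5 and 96.6 CPM at T3, so that the times did not overlap in either pull-down. Its log2 fold change was 1.40 ± 0.22 in HA and 1.57 ± 0.44 in IgG. Within animals Srebf2 was higher in HA than in IgG in all 6 mice. Its IgG values rest on 6, 21 and 50 counts at T0 and on 6, 11 and 24 counts at T3. Insig1 (chromosome 5, 28071363 to 28078662, plus strand), which retains the SCAP and SREBP complex, was at 20.7, 20.1 and 11.5 CPM in HA T0 and 27.8, 35.4 and 34.3 CPM in HA T3, with a log2 fold change of 1.17 ± 0.29. Its IgG values of 12.9, 1.71 and 4.65 CPM at T0 and 22.7, 10.9 and 8.05 CPM at T3 rest on 1 to 6 counts each and overlapped.

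Ordered by mean level, HA T3 was the highest group for all genes with a row except Lss, for which HA T0 and HA T3 overlapped. The step from HA T3 to the next group was free of overlap for Hmgcs1, Fdps, Insig1 and Srebf2, and not for Sqle, Idi1 and Lss. For Srebf2 the next group was IgG T3, whose range overlapped that of HA T0. The share of all genes with the same order or lack of overlap was not counted, so nothing about these genes is read from it.

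Read against all genes tested (edgeR quasi-likelihood F-test, Benjamini-Hochberg adjusted over all genes, threshold 0.05), Hmgcs1, Fdps, Srebf2 and Insig1, 4 of the 6 tested, were called higher in HA T3 than in HA T0, where 18.7% of 9441 genes were called higher and 15.1% lower. Their choice used this contrast, so nothing is read from the count. The median log2 fold change of the 6 was 1.13, against -0.016 over all genes. In IgG T3 against T0, edgeR called 0 of 3 tested (5.46% of 5219 genes in either direction), with 1, Srebf2, at an unadjusted p under 0.05 and also called by DESeq2.
The HA over IgG comparison called 2 of 6 higher at T0, Srebf2 and Insig1 (16.0% of 9823 genes), and 4 of 5 at T3, Hmgcs1, Fdps, Sqle and Srebf2 (11.8% of 7200 genes). The genes were chosen with their CPM in both pull-downs known, so nothing is read from these numbers of calls. Insig1 had only 5, 1 and 6 counts in IgG T0, so a lower level in HA could hardly have been called. The log2 difference of HA over IgG was 0.24 ± 0.25 at T0 and 1.92 ± 0.28 at T3 for Hmgcs1, 0.19 ± 0.23 and 1.51 ± 0.31 for Fdps, 0.68 ± 0.33 and 1.47 ± 0.47 for Sqle, 1.24 ± 0.33 and 0.91 ± 0.31 for Srebf2, and 1.62 ± 0.56 and 1.52 ± 0.61 for Insig1. Of 13 alternatives, 5 lost the call of Insig1 at T0, 7 that of Srebf2 at T3 and 6 that of Sqle at T3, the block by animal among them for Sqle, at 1.44.
These comparisons share libraries, so their calls are not independent of each other.

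**Figure D2:**
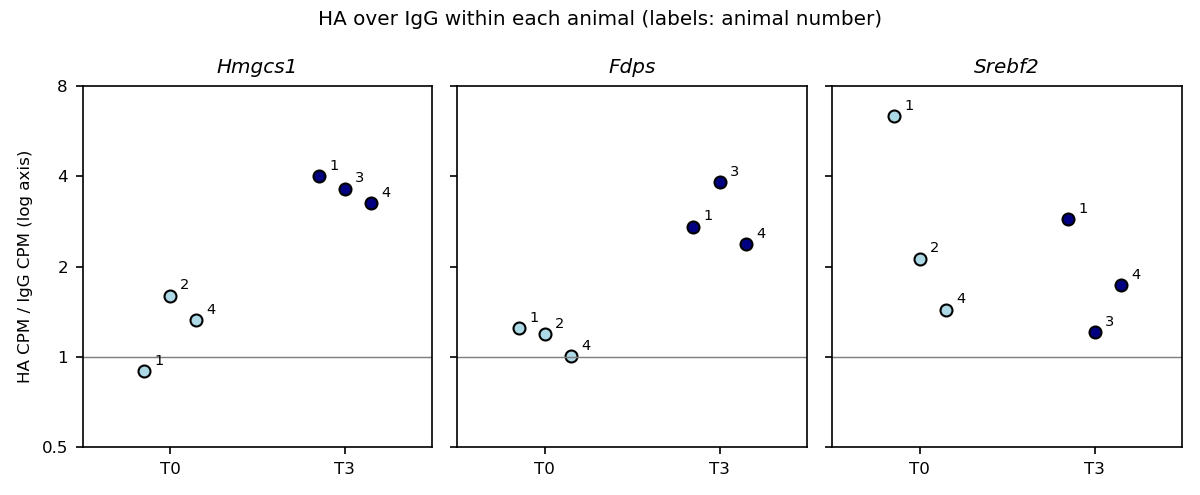
HA CPM divided by IgG CPM of the same animal (log axis, grey line at 1) for Hmgcs1, Fdps and Srebf2, one point per mouse with its number, at T0 and T3. The T3 ratios of Hmgcs1 (3.26 to 4.01) and Fdps (2.38 to 3.83) lie above their T0 ratios, while those of Srebf2 overlap between times. In IgG T3 a library held 14 to 44 counts for Hmgcs1, 5 to 23 for Fdps and 6 to 24 for Srebf2.

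The difference between the change in HA and the change in IgG (interaction of antibody and time) was 1.93 ± 0.37 on the log2 scale for Hmgcs1, the only one of the 6 tested that was called, where 0.330% of 10314 genes were called in either direction. The genes were chosen with their CPM in all groups known, so nothing is read from that number of calls. The difference was 1.58 ± 0.38 for Fdps, which was called with the animal as a block, at 1.64. The interaction was 1.04 ± 0.59 for Sqle, 0.96 ± 1.08 for Lss, 0.15 ± 0.97 for Insig1 and -0.074 ± 0.44 for Srebf2. The median over all genes was itself 0.18 under TMM scaling and -0.18 under total counts, and the call for Hmgcs1 was lost under total counts, at 1.56, and when any of 6 of the 12 libraries was left out.

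Around the 7 genes, the other sterol synthesis enzymes were counted as a list. This list and those below were also chosen with earlier results of these data known, so their counts and p-values are a description. In HA T3 against T0, 7 of the 15 tested were called higher and 0 lower (18.7% and 15.1% of all genes), with a list median of 0.49. Pmvk, phosphomevalonate kinase, rose from 88.4 ± 14.0 to 153 ± 17.7 CPM, with a fitted log2 fold change of 1.05 ± 0.19 (adjusted p = 0.000249). Cyp51, lanosterol demethylase, rose from 12.1 ± 1.87 to 30.2 ± 6.29 CPM (1.59 ± 0.29, adjusted p = 0.000245), and Sc5d, sterol desaturase, from 67.1 ± 11.4 to 137 ± 34.3 CPM (1.30 ± 0.21, adjusted p = 8.59e-05). Hsd17b7, a sterol ketoreductase, rose from 5.23 to 12.7 CPM in HA T0 to 16.4 to 34.1 CPM in HA T3 (1.80 ± 0.37, adjusted p = 0.00101), but was not called when all 12 libraries were fitted together. In IgG, 8 of the 15 enzymes had enough counts to be tested, and edgeR called 0 of them, against 5.46% of all genes in either direction. Of the 8, 0 had an unadjusted p under 0.05 and DESeq2 called 0. A count of 0 of 8 is near that share, so no contrast with HA is read from it.

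Not every enzyme of the route was called higher. Ebp, sterol isomerase, had a log2 fold change of -0.11 ± 0.17 in HA, Dhcr7, the final reductase, -0.35 ± 0.26, and Tm7sf2, sterol reductase, -0.46 ± 0.25, none of them called. By CPM, Ebp was at 108 to 119 in HA T0 and 80.2 to 92.5 in HA T3, and Tm7sf2 at 41.3 to 46.1 and 18.8 to 34.1, without overlap. Dhcr7 was at 31.0 to 48.8 and 22.9 to 31.9 CPM, with overlap. These 3 were HA-enriched in naive tissue: HA over IgG at T0 was 1.36 ± 0.22 for Ebp (adjusted p = 0.000456), 1.40 ± 0.36 for Dhcr7 (adjusted p = 0.00930) and 1.11 ± 0.32 for Tm7sf2 (adjusted p = 0.0160). The call for Tm7sf2 was lost without HA T0 animal 1 and without IgG T0 animal 4. Ebp was at 112 ± 5.92 CPM in HA T0 and 41.8 ± 7.24 CPM in IgG T0. In that comparison 7 of the 15 enzymes of the list were higher in HA, against 16.0% of all genes, and 1, Lbr, was lower.

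**Figure D3:**
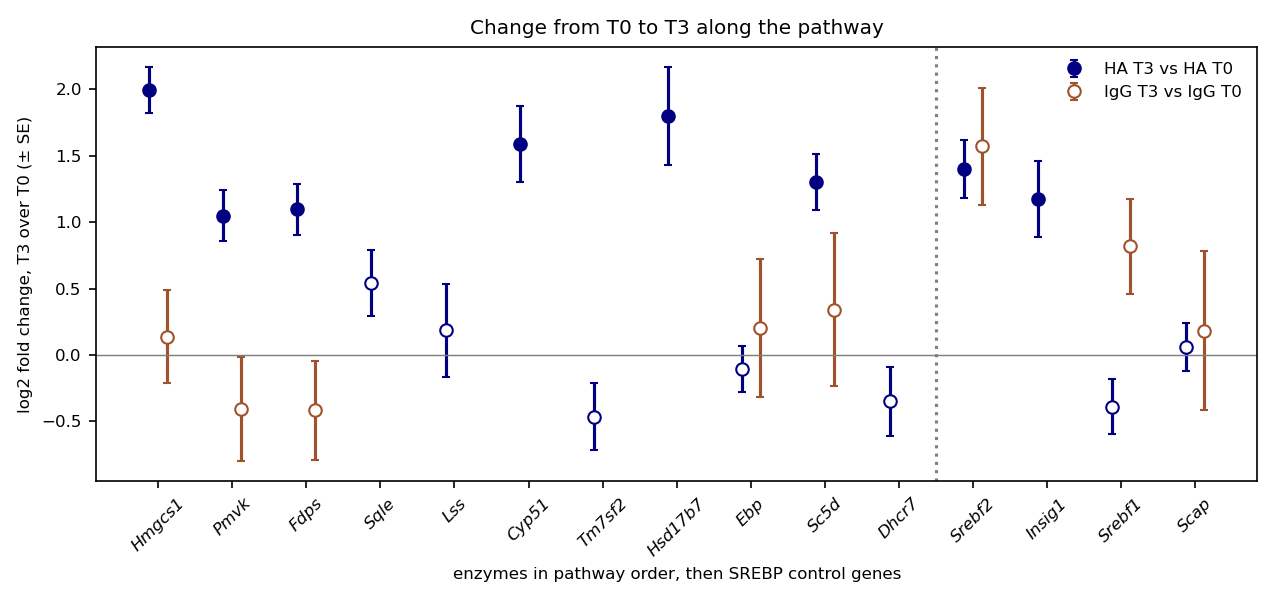
Log2 fold change from T0 to T3 with its SE in HA (blue) and IgG (brown) for synthesis enzymes in pathway order and, right of the dotted line, SREBP control genes. Filled points passed the adjusted threshold and genes too low to test in IgG have no brown point. Hmgcs1, Pmvk, Fdps, Cyp51, Hsd17b7 and Sc5d lie at 1.05 to 2.00 in HA, while Ebp, Dhcr7 and Tm7sf2 lie at -0.46 to -0.11.

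The remaining SREBP control genes were not called higher. Of 13 tested in HA, edgeR called 0 higher and 1 lower, against 18.7% and 15.1% of all genes, and DESeq2 gave the same counts. In so short a list these counts are not far from those shares, so nothing is read from them. An unadjusted p under 0.05 was seen for 3, and the list median was -0.32. Srebf1, which encodes SREBP1, gave -0.39 ± 0.21, and Scap, the SREBP escort, 0.059 ± 0.18. Both were HA-enriched in naive tissue, Srebf1 by 2.88 ± 0.26 (712 ± 169 against 95.4 ± 27.3 CPM, adjusted p = 2.01e-06) and Scap by 2.18 ± 0.23 (adjusted p = 1.24e-05).

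Uptake and intracellular sterol transport genes were called in both directions, 5 of 16 higher and 3 lower in HA (18.7% and 15.1% of all genes; list median 0.12). Stard4, a cytosolic sterol carrier, rose from 3.37 ± 0.53 to 12.3 ± 2.84 CPM (2.09 ± 0.39, adjusted p = 0.000386). Gramd1a and Gramd1b, which carry plasma membrane sterol to the endoplasmic reticulum, rose by 1.56 ± 0.20 (adjusted p = 4.80e-06) and 2.01 ± 0.39 (adjusted p = 0.000484). Gramd1a also rose in IgG, from 103 ± 29.6 to 986 ± 734 CPM (3.20 ± 0.48, adjusted p = 0.00134), and at T3 it was lower in HA than in IgG. Lipa, the lysosomal acid lipase that frees cholesterol from its esters, fell from 76.5 ± 12.0 to 18.3 ± 5.15 CPM (-1.79 ± 0.25, adjusted p = 1.11e-05). In IgG, Lipa was at 35.7 to 74.7 CPM at T0 and 0 to 21.7 CPM at T3, the latter on at most 2 counts a library (-2.33 ± 0.73, adjusted p = 0.0855). Osbpl2 and Stard3, sterol transfer proteins, gave -0.96 ± 0.23 and -0.82 ± 0.20 (adjusted p = 0.00296 and 0.00348).

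Genes of sterol efflux, oxysterols and the LXR pathway were called higher in 2 and lower in 2 of 15 (median -0.067), counts no larger than the 18.7% and 15.1% of all genes would give. Ch25h, cholesterol hydroxylase, which makes an oxysterol known to block SREBP processing, rose in HA from 1.22 ± 0.15 to 22.0 ± 13.9 CPM (4.37 ± 0.51, adjusted p = 1.65e-06). Its level rose in IgG as well, from 2.55 ± 2.30 to 51.0 ± 17.8 CPM (adjusted p = 0.00105). The T0 values rest on at most 4 counts a library in HA and 2 in IgG, so the size of its change is poorly known. Lpcat3 and Abcg4, an acyltransferase and a sterol transporter that are LXR targets, fell by 0.94 and 0.92 on the log2 scale (adjusted p = 0.00127 and 0.0164), and Abcg4 lost the call in the fit of all 12 libraries and without HA T3 animal 4. Lpcat3 in IgG gave -1.07 ± 0.47 (adjusted p = 0.205).

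Fatty acid synthesis genes, many of them SREBP1 targets, were called higher in 4 and lower in 2 of 15 (median -0.11), against the 18.7% and 15.1% of all genes. The 4 were Acacb, Fads2, Acaca and Fasn at 0.75, 0.84, 0.72 and 1.15, and all 4 lost the call when libraries were scaled by total counts. Fasn lost it in 8 of 13 alternatives, DESeq2 among them. Elovl6, a fatty acid elongase, fell from 151 ± 47.5 to 45.5 ± 1.94 CPM (-1.46 ± 0.22, adjusted p = 4.49e-05), and Scd2, a desaturase, gave -0.56 ± 0.18 (adjusted p = 0.0181; not called in the fit of all 12 libraries or without HA T3 animal 4). In naive tissue Elovl6, Scd2 and Fads1 were HA-enriched by 2.65 ± 0.33, 2.13 ± 0.24 and 2.96 ± 0.20. Of 9 genes of the isoprenoid branches of the mevalonate route, 1 was called higher and 0 lower in HA, against 18.7% and 15.1% of all genes. The one called was Rabggta, a subunit of the enzyme that prenylates Rab proteins, at 1.48 ± 0.30 (adjusted p = 0.000841).

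Over the 6 lists, 19 of 83 genes outside the 8 were called higher and 8 lower in HA T3 against T0, where 18.7% and 15.1% of all genes were. The corresponding counts were 2 of 50 in IgG (5.46% of all genes in either direction), 34 higher and 2 lower of 81 in HA over IgG at T0 (16.0% of all genes higher), and 17 higher and 2 lower of 70 at T3 (11.8% of all genes higher). In the interaction edgeR called 0 of 83, where 0.330% of all genes were called in either direction. An unadjusted p under 0.05 was seen for 7, and 1 was called by DESeq2 and 4 with the animal as a block.

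**Figure D4:**
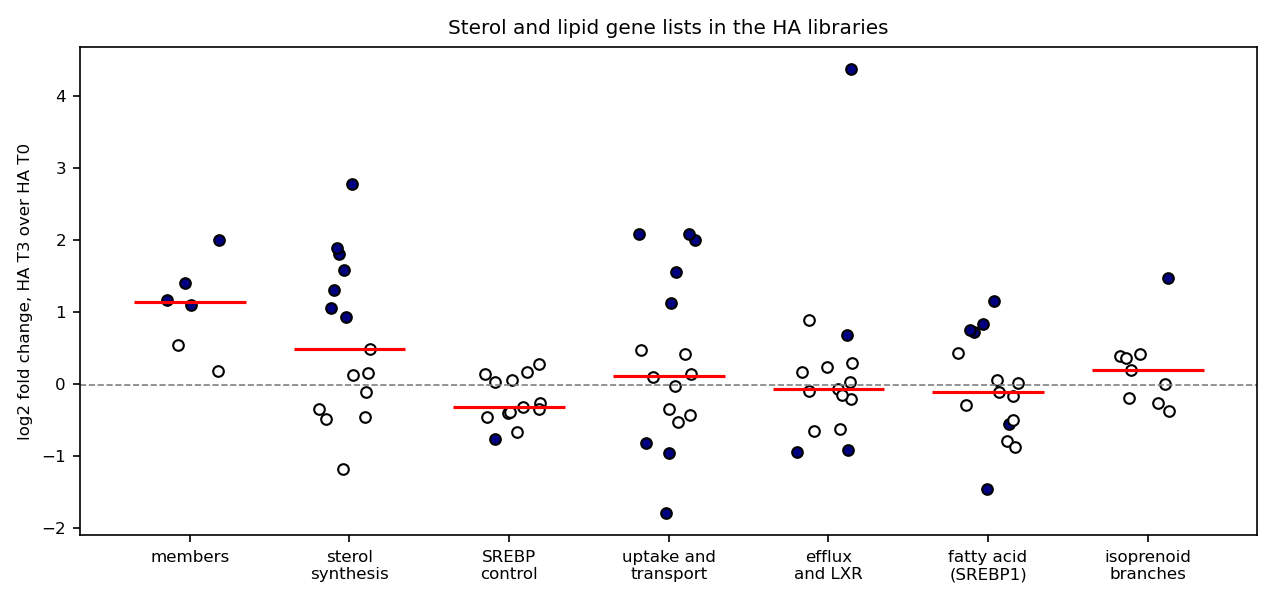
Log2 fold change of HA T3 over HA T0 for each tested gene of the members and of 6 lists of other genes, with the list median in red, the median of all genes as a dashed line and genes past the adjusted threshold filled. Sterol synthesis has 7 filled points, all above 0, while uptake, efflux and fatty acid genes have filled points on both sides.

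Genes with the most similar profile over the 6 HA libraries, out of 6151 with a mean of at least 20 CPM and outside the lists, were Ppp2r5b, Tapbpl, Prmt1, Phf1 and 6030419C18Rik. Likeness was the root mean square difference from the mean centred log2(CPM + 1) profile of the 7 genes, and ran from 0.0539 for Ppp2r5b to 0.0955 for 6030419C18Rik. Among the 7 themselves it was 0.0929 for Fdps, 0.233 for Srebf2, 0.283 for Insig1, 0.380 for Sqle, 0.457 for Hmgcs1, 0.680 for Lss and 0.817 for Idi1.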

How the data were processed

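RNA was measured in 12 libraries from 6 mice. Per the labels, bulk MARS-seq, a 3′ method with UMIs, was used with at most 8 samples per pool, with no statement of the pool of each sample. The authors trimmed with cutadapt, mapped with STAR 2.4.2a and counted with HTSeq from 1000 bases upstream to 100 bases downstream of 3′ ends (GRCm38 coordinates from GENCODE vM21 are given here); the submitters' notes also list DESeq2 1.26.0. The deposited values are whole-number UMI counts per gene, without normalisation. A minimum of 5 reads is stated, but 189 genes had no count of 5 or more. The single files and the series table had 0 differing values.

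The 8 genes and all lists were chosen with earlier results of these data known. Tests used edgeR 4.0.16 and limma 3.58.1 under R 4.3.3 (robust quasi-likelihood F-test, TMM, filterByExpr, adjusted p threshold 0.05, tested on simulated data), each contrast with its own 6 libraries and the interaction with all 12. SE were derived from the F statistic. P-values of T3 against T0 within HA or within IgG measure the spread between libraries of different mice, which includes that of pull-downs and counting. Those of HA over IgG and of the interaction treat the HA and IgG libraries of a mouse as independent. They therefore mix the spread of mice and of pull-downs and ignore the pairing, except where the animal is a block. No p is given for the 8 genes. CPM used total counts and fold changes used TMM scaling, so a fold change differs from the ratio of the CPM means. No level was compared between genes. In each list and contrast, genes past the threshold were named in order of p, at most 5 per direction; a few genes that this rule covers are given no value of their own here, yet they stay in all tests, lists and counts. The alternatives were DESeq2 1.42.0, size factor (RLE) and total-count scaling, no filter, a filter of 5 counts in 1 library, a replicate block, a fit of all 12 libraries and leaving out each library. HA and IgG of the same number came from 1 homogenate; the correlation of their deviations from the group means was 0.305 to 0.326 at T0 and 0.140 to 0.201 at T3, against -0.211 to 0.0146 for other pairs.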

Additional observations from a re-analysis of the deposited data

Results flagged for a closer look

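Groups of 3 libraries were too small for a test of single outlying libraries. Among the 8 genes and the markers of the cell types that the pull-down could hold, the change from T0 to T3 differed between HA and IgG (interaction of antibody and time, edgeR) in 2 genes. For Hmgcs1 the difference was 1.93 on the log2 scale. Every HA T3 library stood above every HA T0 library, and the change in IgG was 0.14. Since Hmgcs1 was selected on its measured levels, this value is a description. For Kit, the receptor that marks interstitial cells of Cajal, it was -2.06 (SE 0.44, adjusted p = 0.0358): Kit went from 971 ± 59.0 to 374 ± 90.4 CPM in HA and from 76.9 ± 16.7 to 181 ± 101 CPM in IgG. The part of interstitial cells of Cajal in the sterol values was not tested.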

How the results depend on the processing

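The 4 calls in HA T3 against T0 were 4 under all 7 other settings of the model and 4 to 5 when each library was left out (5, with Sqle at 0.87, without HA T0 animal 1). Genes of the 8 called in IgG T3 against T0 went from 0 to 1 with no filter, DESeq2, the fit of all 12 libraries or without IgG T3 animal 1 (range 0 to 1), Srebf2 each time. Other list genes called there went from 2 to 4 with no filter (range 1 to 2 when leaving out a library). HA over IgG calls among the 8 were 1 with DESeq2 at T0 (range 0 to 2, 0 without HA T0 animal 1) and 2 with DESeq2 at T3 (range 2 to 4); other list genes at T3 ranged from 12 to 26. Interaction calls among the 8 were 0 under total counts, 2 with DESeq2 and 2 with the replicate block (range 0 to 2); other list genes gave 1 with DESeq2 and 4 with the block (range 0 to 1). The Hmgcs1 interaction lost its call, at 1.55 to 1.87, under total counts and when 1 of 6 libraries was dropped: animals 2 and 4 of HA T0, animals 1 and 4 of HA T3, animal 1 of IgG T0 and animal 3 of IgG T3. The cause was not tested.

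Some values that were not called changed sign. Lss in HA T3 against T0 was -0.093 under total counts, -0.10 with the replicate block and -0.029 to 0.47 when each library was left out. Leaving out each library gave -0.11 to 0.44 for Hmgcs1 in IgG T3 against T0 (-0.040 without animal 4 of IgG T3) and -0.020 to 0.30 for Fdps in HA over IgG at T0. The Insig1 interaction was -0.012 under RLE, -0.20 under total counts and -0.46 to 0.51 when each library was left out (-0.13 without animal 4 of HA T0, -0.27 without animal 4 of IgG T3). The Srebf2 interaction was 0.016 with the replicate block and -0.39 to 0.12 when each library was left out (0.11 without animal 1 of IgG T0, 0.010 without animal 4 of IgG T3).

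Scaling by total counts moved the median of all genes in HA T3 against T0 from -0.016 to -0.29, and the share of calls that were higher from 55.4% to 31.1%. T0 and T3 mice shared only numbers (correlations of 0.0362 and 0.173 in HA and 0.0288 and 0.206 in IgG), so the block there says nothing about pairing. Depth limited the IgG T3 libraries most: Insig1, Sqle and Lss rest there on 0 to 5 counts a library.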
